A study of Mus musculus with 59 samples.

Results

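Hormone receptor transcripts divided the mammary tumors of paraben-exposed mice into 14 receptor-high and 14 receptor-low tumors, 28 of the 40 paraben tumors in a series of 59. The score of a tumor was the mean of log2(value + 1) of Esr1, which encodes estrogen receptor alpha, and Pgr, which encodes the progesterone receptor. Within each of the 2 esters, methylparaben (20 tumors) and propylparaben (20 tumors), classes were chosen by this score: the 7 tumors with the highest score formed the receptor-high class and the 7 with the lowest score the receptor-low class. The 12 tumors between them did not enter the main comparison, and only some alternative fits used them. The other 19 tumors of the series came from vehicle-treated mice, of which the 7 highest and 7 lowest by the same score served as tumors that the choice of classes had not used. Every tumor, vehicle included, came from PyMT (+/-) mice on B6.FVB-Tg(MMTV-PyVT)634Mul/LellJ, in which the mouse mammary tumor virus promoter drives the polyoma middle T oncogene, mainly in mammary epithelium. Parabens are esters of para-hydroxybenzoic acid used as preservatives. The labels give no dose, exposure time or age. Nor do they state whether libraries stem from different animals, and the p-values therefore reflect only the spread among these samples, which may be technical. The classes came from measured transcripts and not from a treatment, so each difference below is between tumors of unlike receptor level.

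Estrogen receptor alpha and the progesterone receptor are ligand-activated transcription factors. In the mouse mammary gland they are found together in a subset of mature luminal cells, the hormone-sensing cells, which pass the hormonal signal to neighboring cells through secreted factors such as amphiregulin (Areg), Wnt4 and RANKL (Tnfsf11). Foxa1 opens chromatin for estrogen receptor alpha, and the receptor-positive cells of the normal gland seldom divide themselves.

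Esr1 and Pgr chose the classes, so their values are a description. All levels are the deposited normalized counts, which equal CPM divided by a scaling factor per library (scaled CPM). Esr1 had a lowest, median and highest level of 17.2, 23.5 and 44.5 in receptor-high tumors and of 4.35, 13.9 and 21.3 in receptor-low tumors. Pgr had 18.6, 44.7 and 75.4 in receptor-high tumors and 6.36, 12.2 and 31.3 in receptor-low tumors. The classes thus overlapped in each receptor taken singly. Of the receptor-high tumors, 8 were also among the 7 highest per ester by Esr1 alone and 12 by Pgr alone, while 1 was among the 7 lowest by Pgr alone. Esr1 rested on few molecules, between 37 and 103 reads in receptor-high and between 9 and 66 reads in receptor-low libraries. Intronic Esr1 had a median of 109 scaled CPM in receptor-high and 69.4 in receptor-low tumors, and intronic Pgr a median of 100.3 and 32.1. At the upper boundary, the lowest receptor-high score was 4.83 in methylparaben and 4.80 in propylparaben, and the next tumor outside had 4.80 and 4.54. At the lower boundary, the highest receptor-low score was 4.55 in methylparaben and 3.81 in propylparaben, and the next tumor outside had 4.57 and 4.27. The mean score differed by 1.28 between the paraben classes and by 2.30 between the vehicle classes, whose receptor-low tumors reached down to 1.23 for Esr1 and 0.328 for Pgr.

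**Figure D1:**
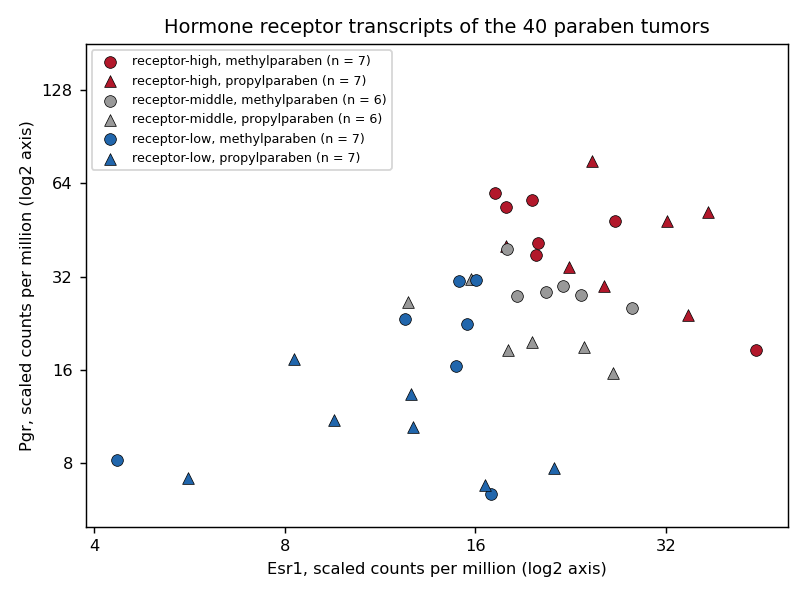
Esr1 (x axis) against Pgr (y axis) in the 40 paraben tumors, both in scaled CPM on log2 axes, with circles for methylparaben, triangles for propylparaben, and red, grey and blue for receptor-high, middle and receptor-low tumors. The receptor-high tumors lie mostly toward the upper right. Methylparaben replicate 5 is receptor-high through Esr1 (44.5), while its Pgr level of 18.6 is among the 7 lowest of methylparaben.

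Each of the 59 libraries held between 1166502 and 2032789 reads on genes. In permutation tests with labels exchanged within each ester (100000 resamples, two-sided), none of 6 library measures differed between receptor-high and receptor-low paraben tumors with an adjusted p under 0.557. The smallest unadjusted p was 0.134, for reads aligned to several places (12.3% ± 0.773 in receptor-high and 12.8% ± 0.959 in receptor-low tumors, SD, n = 14 each). All 3 paraben libraries with a scaling factor under 0.9 (methylparaben replicates 1, 5 and 16) were receptor-high, and replicate 5 had 11.5% mitochondrial reads. A first principal component over the 59 libraries held 19.1% of the variance. Esr1 and Pgr were among its genes, and its sign was set so that it rose with the receptor score. Its 7 lowest libraries were 6 receptor-low vehicle tumors and receptor-low propylparaben replicate 1.

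Whether other transcripts differed between the classes was tested with limma in the 28 paraben tumors, with ester as a block. Genes higher in receptor-high tumors included Stc2, Foxa1 and Prlr, which are among 5 of 14 hormone-sensing luminal markers called. Genes lower in receptor-high tumors included Plod2, Dtl, Kif23 (the 1 of 20 mitosis genes called) and Mcm3 (the 1 of 20 replication genes called). In all, 47 of 14485 genes tested passed an adjusted p of 0.05, which is 0.324%, with 29 higher (0.2%) and 18 lower (0.124%). The balance of directions depended on the processing: it was 29 higher and 9 lower with median-of-ratios scaling, 18 and 21 with a mean of at least 10, 124 and 146 with DESeq2, 83 and 119 with array weights, and 166 and 183 with the score as a continuous covariate. Without propylparaben replicate 14 it was 60 and 102. The called log2 fold changes ran from 0.32 to 2.52 among higher genes and from 0.31 to 1.11 in size among lower genes. An unadjusted p under 0.05 was reached by 1950 genes. No gene separated the classes completely, in either direction (0 of 14485, 0%). In bulk tissue, fewer cells of a type and less RNA per cell cannot be told apart. The count depended on how the classes were drawn: with the 10 highest against the 10 lowest tumors of each ester it was 0 (1674 genes at an unadjusted p under 0.05), with classes from Esr1 alone it was 0 (2030 genes), and with single tumors left out it ran between 19 and 162.

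Several markers of mature hormone-sensing luminal cells were higher in receptor-high tumors. Of 14 members tested, 5 were called higher (Stc2, Fxyd2, Foxa1, Prlr and Ly6a) and 0 lower, and 12 had a fold change above 0. Their median log2 fold change was 0.70, beside 0.00 over all genes tested. Their summed level ran from 1494 through a median of 1951 to 2256 scaled CPM in receptor-high tumors and from 1120 through 1479 to 1729 in receptor-low tumors. Tnfsf11 averaged 0.280 over the 59 libraries and was too low to test.

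Stc2, on chromosome 11 (31357307 to 31370074, minus strand, GRCm38), encodes stanniocalcin 2, a secreted glycoprotein induced by estrogen in human breast cancer cells. It had a lowest, median and highest level of 16.6, 36.6 and 54.8 in receptor-high tumors and of 4.61, 16.1 and 27.6 in receptor-low tumors. All 14 receptor-high tumors lay above the receptor-low median, and the classes overlapped. The log2 fold change was 1.20 ± 0.19 (SE, adjusted p = 0.00291), and it stayed called in each of 28 fits with 1 tumor left out. Foxa1 (chromosome 12, 57540628 to 57546916, minus strand) had 22.3, 46.3 and 69.3 in receptor-high tumors and 11.1, 19.4 and 40.9 in receptor-low tumors. All 14 receptor-high tumors were above the receptor-low median, with a log2 fold change of 0.97 ± 0.20 (adjusted p = 0.0251). Without propylparaben replicate 6 its adjusted p was 0.0572, and it was called in 23 of 28 such fits. Prlr (chromosome 15, 10177238 to 10349180, plus strand) encodes the prolactin receptor, through which prolactin signals in luminal cells. Its level was 226, 411 and 666 in receptor-high tumors and 148, 230 and 360 in receptor-low tumors. The log2 fold change was 0.73 ± 0.15 (adjusted p = 0.0207), and 13 of 14 receptor-high tumors lay above the receptor-low median. Exons of Prlr overlap those of Gm21973 on the same strand.

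Ly6a encodes the surface protein Sca-1, a marker of hormone-sensing luminal cells in mice. It had 137, 194 and 244 in receptor-high tumors and 49.1, 129 and 200 in receptor-low tumors, with a log2 fold change of 0.65 ± 0.13 (adjusted p = 0.0251, and 0.0508 without propylparaben replicate 17). Fxyd2, which encodes a regulatory subunit of the sodium-potassium pump, had 2.55, 6.49 and 12 in receptor-high tumors and 0.786, 2.91 and 6.46 in receptor-low tumors. Its log2 fold change was 1.01 ± 0.21 (adjusted p = 0.0258, and 0.0602 without propylparaben replicate 6). Other members of the list did not pass. Cited1, a coactivator of estrogen receptor alpha, had 12.4, 39.2 and 67.7 in receptor-high tumors and 5.32, 15.3 and 32.7 in receptor-low tumors (log2 1.07 ± 0.25, adjusted p = 0.0517). Wnt4 had a log2 fold change of 0.85 ± 0.24 (adjusted p = 0.0945), Areg of 0.75 ± 0.30 (adjusted p = 0.262) and the transcription factor Tbx3 of 0.68 ± 0.19 (adjusted p = 0.108).

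The estrogen response list and the progesterone response list each held a single call. Over all genes tested, 0.2% were called higher, and these shares were not tested against each other. Of 19 estrogen response genes tested, Stc2 was called, and the median log2 fold change was 0.06, with 15 of 19 above 0. Greb1, a coactivator and one of the most estrogen-responsive genes of human breast cancer cells, had 2.94, 9.26 and 17.2 in receptor-high tumors and 2.05, 8.98 and 22.2 in receptor-low tumors. The log2 fold change of Greb1 was 0.03 with a 95% interval from -0.50 to 0.57 (adjusted p = 0.971). Myb differed by 0.61 ± 0.17 (adjusted p = 0.0947) and Irs1, an adaptor of insulin and IGF receptors, by 0.34 ± 0.12 (adjusted p = 0.213). Of 11 progesterone response and paracrine genes, only Prlr was called, and the median was 0.25, with 6 above and 5 below 0. The median was 0.03 within methylparaben and 0.47 within propylparaben. Calca, the calcitonin gene, was at a median of 0 in both classes, with a log2 fold change of -0.34 ± 0.40 (adjusted p = 0.760). Of 6 members tested of the list of steroid receptors and the prolactin receptor, only Prlr was called. The glucocorticoid receptor Nr3c1 had a log2 fold change of 0.08 with an interval from -0.07 to 0.23 (adjusted p = 0.662).

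Of 19 luminal lineage transcription factors, Foxa1 was called, beside 0.2% of all genes tested called higher. Their median log2 fold change was 0.03, with 12 above and 7 below 0, and 0.19 within propylparaben. Gata3, a regulator of luminal differentiation, had a log2 fold change of 0.23 with an interval from 0.04 to 0.41 (adjusted p = 0.263), and Elf5, a regulator of alveolar cells, of -0.09 with an interval from -0.32 to 0.13 (adjusted p = 0.763). None of 14 luminal epithelial markers was called (median 0.06, with 9 above and 5 below 0). Among them, the keratin gene Krt19 had a log2 fold change of 0.55 ± 0.15 (adjusted p = 0.0862) and Krt8 of 0.09 ± 0.12 (adjusted p = 0.785). The basal keratin Krt5 had 0.25 ± 0.35 (adjusted p = 0.813). None of 14 alveolar and milk genes passed, and their folds had no shared sign (6 above and 8 below 0). Csn1s1, a casein gene, had 3.83, 18.9 and 48.7 in receptor-high tumors and 9.12, 56.3 and 403 in receptor-low tumors. All 14 receptor-high tumors lay below the receptor-low median of Csn1s1, yet its log2 fold change of -1.86 ± 0.47 missed the threshold (adjusted p = 0.0661). Csn2 had -0.86 ± 0.48 (adjusted p = 0.444), while the milk gene Lalba had 0.69 ± 0.30 (adjusted p = 0.315).

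**Figure D2:**
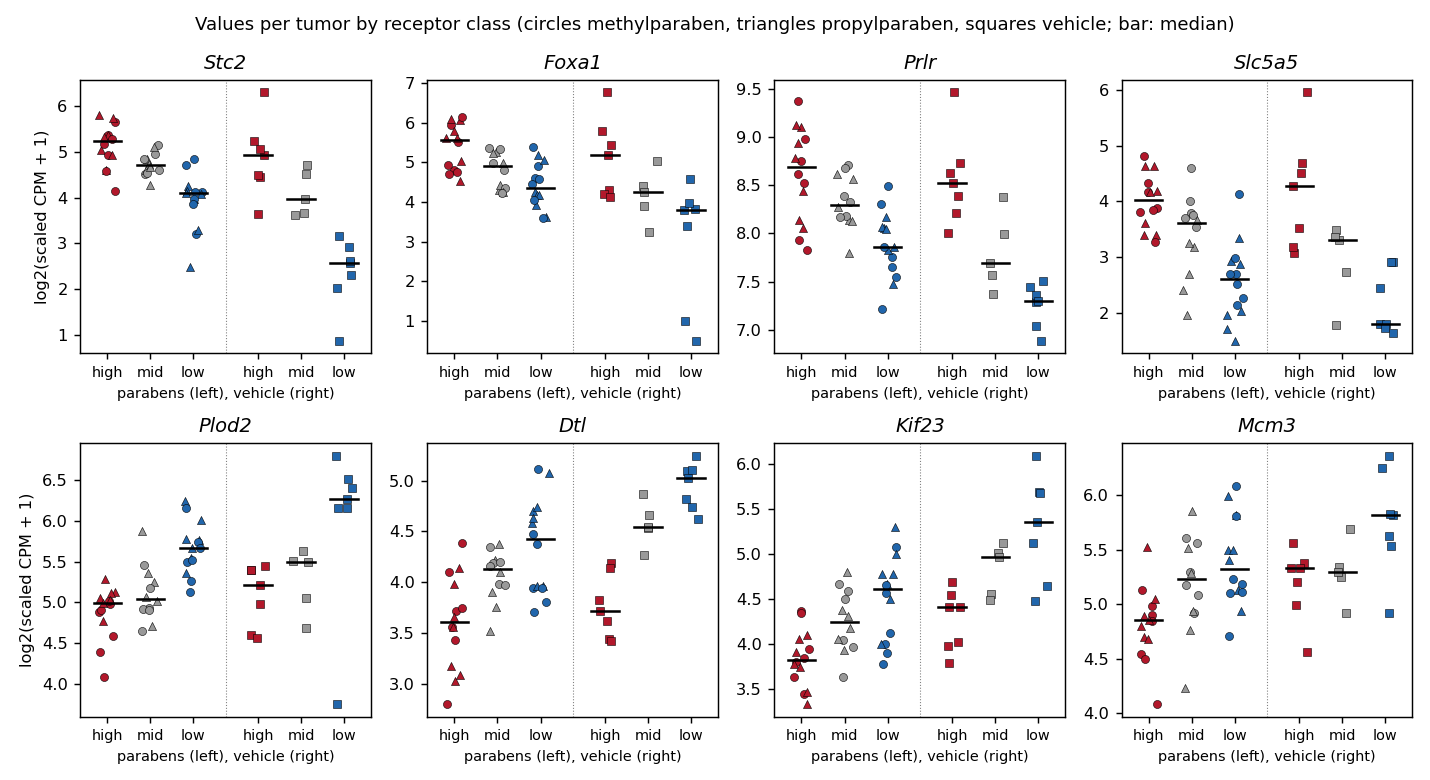
Level of 8 genes in every tumor of the series, as log2(scaled CPM + 1) on the y axis, by receptor class (red high, grey middle, blue low) in paraben tumors at left and vehicle tumors at right of each panel, with a bar at the median. Medians of Stc2, Foxa1, Prlr and Slc5a5 are higher, and those of Plod2, Dtl, Kif23 and Mcm3 lower, in receptor-high than in receptor-low tumors, with overlap of the paraben classes in every panel.

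Other called genes, higher in receptor-high tumors, were Slc5a5, Slc12a2 and Glul. Slc5a5, the sodium-iodide symporter used by lactating mammary cells, had 8.60, 15.3 and 27.1 in receptor-high tumors and 1.82, 5.10 and 16.5 in receptor-low tumors. Its log2 fold change was 1.45 ± 0.22 (adjusted p = 0.00122). Slc12a2, a sodium-potassium-chloride cotransporter, had 430, 558 and 781 in receptor-high tumors and 233, 318 and 497 in receptor-low tumors (log2 0.78 ± 0.12, adjusted p = 0.00169). Glul, which encodes glutamine synthetase, had 138, 243 and 861 in receptor-high tumors and 51.2, 106 and 215 in receptor-low tumors (log2 1.10 ± 0.21, adjusted p = 0.0123). For each of these 3 genes, the 14 receptor-high tumors lay above the receptor-low median, and the classes overlapped.

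The largest fold change was that of Dmbt1, which encodes a secreted scavenger receptor of mucosal epithelia. It had 9.74, 42.1 and 143 in receptor-high tumors and 0.484, 7.99 and 39.6 in receptor-low tumors (log2 2.52 ± 0.45, adjusted p = 0.00703). Gipc2, a PDZ-domain protein, differed by 1.17 ± 0.21 and Tmem56, a transmembrane protein, by 1.10 ± 0.20 (adjusted p = 0.00703 for both). Slc35f3, a solute carrier, differed by 1.24 ± 0.25 (adjusted p = 0.0197) and Tmprss2, a transmembrane serine protease, by 0.80 ± 0.15 (adjusted p = 0.00831). Ly6d, a surface protein on the skin marker list, differed by 0.99 ± 0.21 (adjusted p = 0.0311, called in 21 of 28 fits with 1 tumor left out). Exons of Glul overlap Teddm2 and those of Gipc2 overlap D630002J18Rik and Gm31881 on the other strand, and the strand setting of the counting is not given, so reads of these pairs cannot be told apart.

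Among the called genes were 2 neighbors of Pgr itself. Pgr lies on chromosome 9 from 8899833 to 8968611 on the plus strand. Gm16485 begins at 8971791 on the same strand, 3179 bases beyond the end of Pgr, and had 5.11, 8.84 and 13.7 in receptor-high tumors and 0, 2.74 and 9.06 in receptor-low tumors (log2 1.44 ± 0.25, adjusted p = 0.00522). Whether reads assigned to Gm16485 come from transcripts of Pgr was not tested. Trpc6, a cation channel gene 219091 bases away on the other side, had 2.91, 4.66 and 12.4 in receptor-high tumors and 0.847, 2.26 and 4.05 in receptor-low tumors (log2 0.86 ± 0.17, adjusted p = 0.0193). The noncoding gene Gm32014, which overlaps Trpc6 on the other strand and lies 158844 bases from Pgr, was not called from its exonic reads (log2 0.61, adjusted p = 0.309), but its introns were (log2 2.08 ± 0.37, adjusted p = 0.00694). Arhgap42, 25717 bases from Pgr, differed by 0.18 ± 0.10 (adjusted p = 0.475). None of the genes tested within 500000 bases of Esr1 was called. These neighbors were examined with the gene results in view, and intronic reads of Trpc6 and Gm32014 cannot be told apart where they overlap.

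Genes of mitosis and DNA replication had fold changes of one sign, with a single call in each list, beside 0.124% of all genes tested called lower. All 20 mitosis genes and all 20 replication genes had log2 fold changes below 0, with medians of -0.52 and -0.41 beside 0.00 over all genes tested. Kif23 of the first list and Mcm3 of the second were called. The summed level of the mitosis genes ran from 418 through a median of 672 to 1177 scaled CPM in receptor-high tumors and from 645 through 938 to 1821 in receptor-low tumors. The medians kept their sign with each tumor left out, with ranges from -0.58 to -0.45 for mitosis and from -0.47 to -0.35 for replication. With the mitosis score as a covariate, 6 genes were called in place of 47 (5 higher and 1 lower, with 687 genes at an unadjusted p under 0.05), all 6 among the 47 and without Stc2, Foxa1 and Prlr.

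Kif23, a kinesin of the central spindle needed for cytokinesis, had 9.11, 13.2 and 19.7 in receptor-high tumors and 12.7, 23.5 and 38.4 in receptor-low tumors (log2 -0.67 ± 0.15, adjusted p = 0.0391). All 14 receptor-high tumors were below the receptor-low median of Kif23. Mcm3, a subunit of the replicative helicase, had 15.9, 27.9 and 45 in receptor-high tumors and 25.1, 39 and 67 in receptor-low tumors (log2 -0.57 ± 0.13, adjusted p = 0.0490). Dtl, part of a ubiquitin ligase that limits replication licensing, had 5.98, 11.2 and 19.9 in receptor-high tumors and 12.1, 20.5 and 33.7 in receptor-low tumors (log2 -0.76 ± 0.17, adjusted p = 0.0401). Incenp, a scaffold of the chromosomal passenger complex, differed by -0.63 ± 0.13 (adjusted p = 0.0258), and Ranbp1, a regulator of the Ran GTPase, by -0.41 ± 0.09 (adjusted p = 0.0435). With 1 tumor left out, Kif23 was called in 12, Mcm3 in 9, Dtl in 13, Incenp in 20 and Ranbp1 in 9 of 28 fits, with highest adjusted p-values of 0.0754, 0.0981, 0.0847, 0.0583 and 0.0851. All 5 lost their call with 6 tissue scores as covariates. In 19 fits with other processing, classes or covariates, Kif23 was called in 10, Mcm3 in 5, Dtl in 11, Incenp in 13 and Ranbp1 in 10. Other cell cycle genes did not pass: Cdc20 had -0.65 ± 0.16 (adjusted p = 0.0606), Ccna2 -0.51 ± 0.13 (0.0660), Ccnb1 -0.51 ± 0.19 (0.218), Mki67 -0.38 ± 0.13 (0.163), Mcm2 -0.50 ± 0.13 (0.0793) and E2f1 -0.55 ± 0.13 (0.0606).

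Promoter sequences of Stc2 and Foxa1, called higher, and of Mcm3 and Dtl, called lower, are shown because each holds a motif searched in the promoters of all called genes. RefSeq promoters (GRCm38.p6, from 250 bases before to 50 after the transcript start, read on the strand of the gene) were found for 20 of the 29 higher and 15 of the 18 lower genes, and for 10723 genes tested. The core of the estrogen response element, GGTCA, searched on both strands, was in 10 of 20 promoters of higher genes, in 9 of 15 of lower genes and in 37% of all. An E2F site, TTTGGCGC, on either strand, was in 2 of 15 promoters of lower genes, Mcm3 and Dtl, in 0 of 20 of higher genes, and in 0.979% of all. Capitals mark GGTCA in Stc2 (chr11:31370012-31370311, minus strand) and Foxa1 (chr12:57546062-57546361, minus strand) and TTTGGCGC in Mcm3 (chr1:20820263-20820562, minus strand) and Dtl (chr1:191575495-191575794, minus strand). The Mcm3 window, of a gene called lower, also holds GGTCA on both strands (ggtca and tgacc), left in lower case.
Stc2: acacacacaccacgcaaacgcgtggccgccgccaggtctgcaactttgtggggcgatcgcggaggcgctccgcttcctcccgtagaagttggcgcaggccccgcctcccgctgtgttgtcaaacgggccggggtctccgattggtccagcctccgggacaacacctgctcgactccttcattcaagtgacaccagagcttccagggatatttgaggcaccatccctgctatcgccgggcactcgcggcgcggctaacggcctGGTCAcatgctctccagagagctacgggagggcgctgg
Foxa1: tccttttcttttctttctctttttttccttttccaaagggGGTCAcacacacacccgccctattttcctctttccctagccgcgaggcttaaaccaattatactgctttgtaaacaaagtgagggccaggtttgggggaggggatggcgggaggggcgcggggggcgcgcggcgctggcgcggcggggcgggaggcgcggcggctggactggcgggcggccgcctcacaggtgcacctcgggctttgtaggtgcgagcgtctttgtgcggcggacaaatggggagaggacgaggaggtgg
Mcm3: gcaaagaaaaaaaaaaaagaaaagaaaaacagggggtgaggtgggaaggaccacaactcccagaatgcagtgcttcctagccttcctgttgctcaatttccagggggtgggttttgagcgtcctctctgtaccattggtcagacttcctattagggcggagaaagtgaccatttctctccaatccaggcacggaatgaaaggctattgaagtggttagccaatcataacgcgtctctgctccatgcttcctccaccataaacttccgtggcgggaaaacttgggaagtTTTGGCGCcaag
Dtl: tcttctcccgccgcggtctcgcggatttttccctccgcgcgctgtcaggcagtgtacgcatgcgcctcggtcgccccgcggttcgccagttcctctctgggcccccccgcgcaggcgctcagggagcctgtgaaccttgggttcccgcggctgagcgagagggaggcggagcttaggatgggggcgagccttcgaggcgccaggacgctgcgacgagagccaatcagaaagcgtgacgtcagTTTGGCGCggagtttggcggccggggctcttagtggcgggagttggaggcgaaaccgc
Counted from the RefSeq transcript start, with negative positions upstream, the capitalized motif begins at 13 in Stc2, at -210 in Foxa1, at 39 in Mcm3 and at -8 in Dtl. The Foxa1 window lies wholly within the span given above for that gene (57540628 to 57546916). Its motif is thus upstream of the RefSeq start but inside the gene by that span. A match is a description of the letters and no evidence of binding.

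Lower genes outside the cell cycle included enzymes of the matrix and of lipids. Plod2, a lysyl hydroxylase that modifies collagen, had the smallest p of all genes tested in this comparison. It had 16, 30.7 and 38 in receptor-high tumors and 34, 49.7 and 74.7 in receptor-low tumors, with a narrow overlap between the classes (log2 -0.79 ± 0.11, adjusted p = 0.00041). Ddah1, which degrades methylated arginines that inhibit nitric oxide synthesis, had 16.1, 26.6 and 39.1 in receptor-high tumors and 28.5, 39.97 and 81 in receptor-low tumors (log2 -0.71 ± 0.13, adjusted p = 0.00831). Both were called in all 28 fits with 1 tumor left out. In 19 fits with other processing, classes or covariates, Plod2 was called in 17 and Ddah1 in 13. Fads2, a fatty acid desaturase, differed by -0.48 ± 0.10 (adjusted p = 0.0251), and Aqp9, a channel for water and glycerol, by -1.10 ± 0.23 (adjusted p = 0.0258). Fads2 was called in 26 and Aqp9 in 22 of the 28 fits, with adjusted p-values of 0.0553 and 0.0607 without propylparaben replicate 2. Weaker calls, each held in 10 to 15 of the 28 fits, were Ttc9 (log2 -0.64 ± 0.14, adjusted p = 0.0391), the RNA-binding protein gene Mex3a (-0.46 ± 0.11, 0.0462), the R-spondin receptor gene Lgr4 (-0.38 ± 0.09, 0.0465) and Naa15, a subunit of an N-terminal acetyltransferase (-0.31 ± 0.07, 0.0391). Among named genes, exons of Plod2, Ranbp1, Mex3a, Cdc20, Ccna2, Gata3, Greb1, Irs1, Myb, Tbx3, Krt5, Krt8, Ncam1, Car9, Nrxn3 and Myef2 also overlap a gene on the other strand, and those of Gata3 and Ranbp1 a gene on the same strand, so their values carry the same uncertainty.

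Markers of other cell types in the tumor piece gave no calls apart from Ly6d. The 13 adipocyte markers had a median log2 fold change of 1.16, all 13 above 0, with a summed level from 138 through 853 to 16545 in receptor-high tumors and from 115 through 260 to 1801 in receptor-low tumors. The adipocyte gene Fabp4 had a log2 fold change of 1.09 with an interval from -0.27 to 2.45 (adjusted p = 0.496). The 14 fibroblast markers had a median of 0.17, the 12 macrophage markers of 0.09, the 12 endothelial markers of 0.18 and the 7 T cell markers of 0.26. The fibroblast gene Dcn had 0.67 ± 0.24 (adjusted p = 0.209) and the T cell gene Cd8a 0.42 ± 0.27 (adjusted p = 0.509). The 10 skeletal muscle markers had a median of 0.59 and the 5 B and plasma cell markers tested of 0.82, in both lists with every fold above 0 and none called. Single libraries moved these medians. With 1 tumor left out, the muscle median ran from 0.195 (without methylparaben replicate 5) to 0.908. The adipocyte median ran from 0.891 (without the same library) to 1.47, and the B and plasma cell median from 0.531 (without propylparaben replicate 17) to 0.945. With 6 tissue scores as covariates (adipocyte, muscle, B cell, T cell, macrophage and fibroblast) 30 genes were called, 25 higher and 5 lower, and 27 of them were among the 47. None of 19 hypoxia and glycolysis genes was called (median -0.22). Car9 differed by -0.81 ± 0.23 (adjusted p = 0.0968), Egln3 by -0.60 ± 0.18 (adjusted p = 0.130) and Vegfa by -0.38 with an interval from -0.88 to 0.13 (adjusted p = 0.529). All 18 interferon-stimulated genes tested missed the threshold, with a median of 0.19 and 17 above 0. The 20 cytosolic ribosomal protein genes had a median of -0.02.

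**Figure D3:**
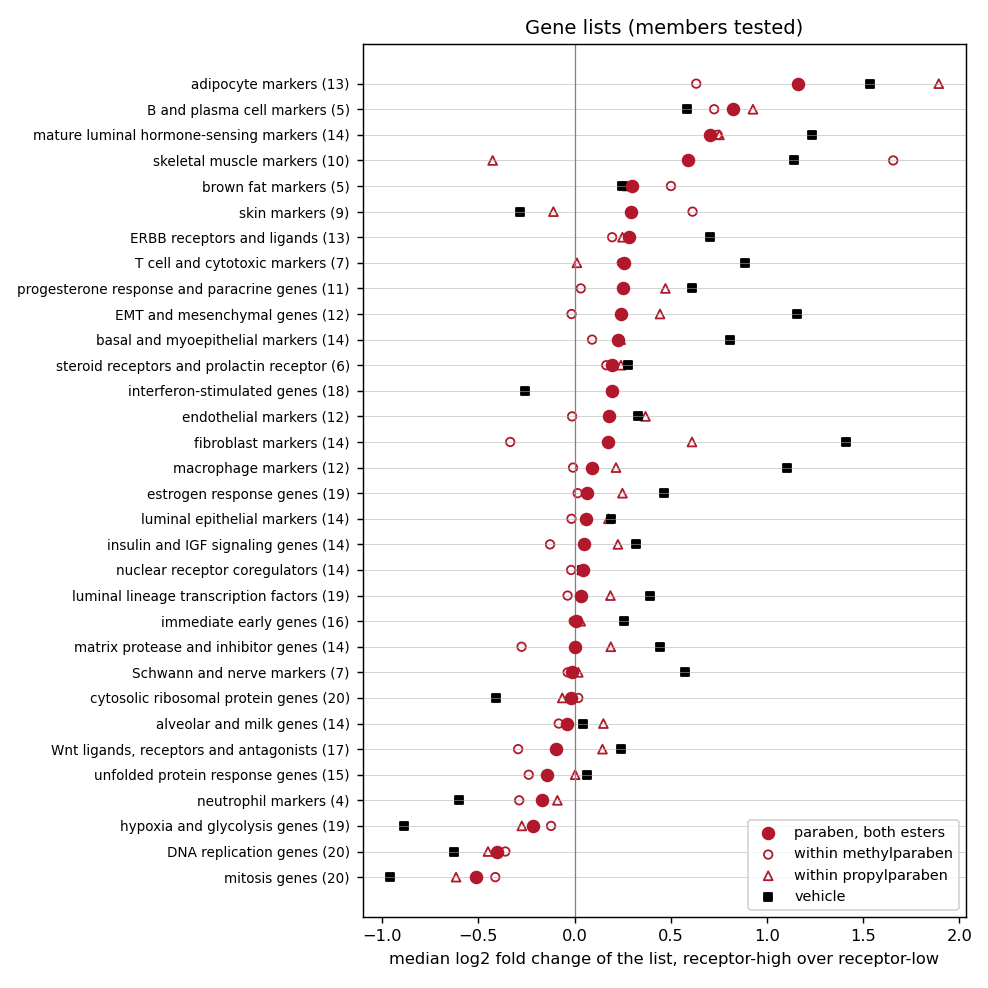
Median log2 fold change of each gene list, receptor-high over receptor-low, in paraben tumors of both esters (filled red), within methylparaben (open circles), within propylparaben (open triangles) and in vehicle tumors (black squares), with the number of members tested in brackets. Hormone-sensing markers lie above 0 and mitosis and replication genes below 0 in all 4 sets, while fibroblast and muscle markers differ in sign between the esters.

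Within single esters the same contrast had 7 tumors against 7 and fewer calls. Within propylparaben, limma called 8 genes (0.0552% of 14485, with 1412 at an unadjusted p under 0.05). The 7 higher ones (0.0483%), Stc2, Slc5a5, Slc12a2, Ly6a, Ly6d, Gm16485 and Fam25c, were all among the 29, and the lower one (0.0069%) was Aaas, which encodes a nucleoporin. Within methylparaben it called 0 (0%, with 1205 at an unadjusted p under 0.05). The difference between the esters was called for 0 genes with limma (0%, 656 at an unadjusted p under 0.05) and for 0 with edgeR (677). Stc2 had a log2 fold change of 0.90 within methylparaben and 1.5 within propylparaben, Foxa1 of 0.75 and 1.20, and Ly6d of 0.44 and 1.54. Plod2 had -0.87 and -0.72, and Kif23 -0.39 and -0.94. The hormone-sensing median was 0.74 within methylparaben and 0.75 within propylparaben, and the mitosis median -0.41 and -0.62. In other lists the medians lay farther apart: the fibroblast median was -0.33 and 0.61, the skeletal muscle median 1.66 and -0.43, and the adipocyte median 0.63 and 1.89. These list differences were not tested. The receptor-low tumors had a median score of 4.17 in methylparaben and 3.65 in propylparaben.

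In vehicle tumors, which share no library with the paraben comparison, the 7 receptor-high against the 7 receptor-low gave 3115 calls of 14485 (21.5%). Of these 1793 were higher (12.4%) and 1322 lower (9.13%). Of the 29 genes higher in paraben tumors, 29 had the same sign in vehicle tumors and 27 were called there, which is 93.1% of the paraben list and 1.51% of the vehicle list. Of the 18 lower genes, 17 had the same sign and 14 were called, or 77.8% of the paraben and 1.06% of the vehicle list. Over all genes tested, 67.6% had the same sign in both. Stc2 had a log2 fold change of 2.53 ± 0.36 in vehicle tumors (adjusted p = 0.000195), Foxa1 of 2.11 ± 0.58 (adjusted p = 0.0140), Prlr of 1.31 ± 0.17 (adjusted p = 0.000115) and Slc5a5 of 1.99 ± 0.38 (adjusted p = 0.00133). Dtl had -1.19 ± 0.15 (adjusted p = 0.000115) and Kif23 -1.03 ± 0.22 (adjusted p = 0.00342), whereas Plod2 had -0.92 ± 0.34 (adjusted p = 0.0587) and Ddah1 -0.41 ± 0.37 (adjusted p = 0.472). Of the hormone-sensing markers 9 of 14 were called higher in vehicle tumors (median 1.24), and of the mitosis genes 20 of 20 lower (median -0.96).

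Of the 7 receptor-low vehicle tumors, 6 were among the 7 lowest libraries on that component. Over the 13 vehicle tumors outside them, with the score as a continuous covariate, 63 genes were called, against 2381 in the same fit over all 19 vehicle tumors. The scores of the 13 ran from 3.37 to 5.88, against 1.20 to 5.88 over all 19. The part of this narrower range in the lower count was not tested. In those 13 tumors, the slopes of all 29 higher genes were above 0 and of all 18 lower genes below 0, against 63.2% with the same sign over all genes tested. An unadjusted p under 0.05 was reached by 26 of the 29 and by 10 of the 18, against 10.6% of all genes tested.

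**Figure D4:**
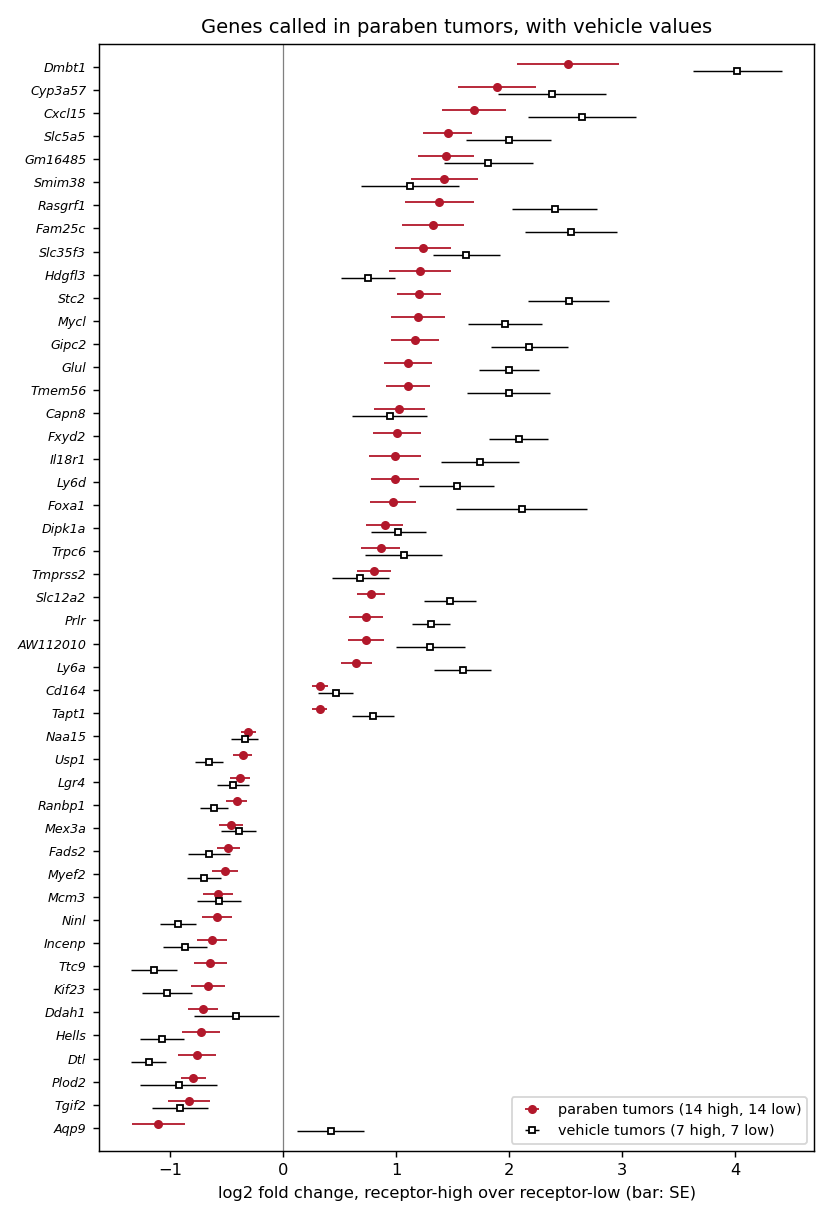
Log2 fold change, receptor-high over receptor-low, of the 47 genes called in paraben tumors (red circles), with the same contrast in vehicle tumors (open black squares), bars showing the SE. All 29 higher genes lie above 0 in both, and of the 18 lower genes Aqp9 is above 0 in vehicle tumors.

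The contrast itself differed between paraben and vehicle tumors for 304 genes (2.1% of 14485), 61 with a more positive (0.421%) and 243 with a more negative value (1.68%) in paraben tumors. In vehicle tumors the 243 were all higher, and the 61 all lower, in the receptor-high class. Each of the 304 was thus shifted in paraben tumors against its sign in vehicle tumors. In 115 of the 304, the signs of the contrast were opposite. Gata3 had log2 0.23 ± 0.09 in paraben and 1.36 ± 0.16 in vehicle tumors, a difference of -1.13 (adjusted p = 0.000293). Its median was 499.9 in receptor-high and 399 in receptor-low paraben tumors, and 527 and 193 in the vehicle classes. Vegfa had -0.38 ± 0.25 in paraben and -1.97 ± 0.17 in vehicle tumors, a difference of 1.59 (adjusted p = 0.0190). Of the 47 genes, only Aqp9 passed the threshold for this difference, with -1.10 ± 0.23 in paraben and 0.42 ± 0.30 in vehicle tumors (difference -1.52, adjusted p = 0.0336). Most of the others still had a larger contrast in vehicle tumors, 25 of the 29 higher and 14 of the 18 lower genes. Fibroblast markers held 6 of the 304 and macrophage markers 5. The wider score gap of the vehicle classes, 2.30 against 1.28, moves with these differences, and its part in them was not tested.

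Intronic reads of the same libraries gave 10 calls among 14279 genes (0.07%), 9 higher (0.063%) and 1 lower (0.007%). Higher were Gm19519, Nrxn3, Slc12a2, Trpc6, Gm32014, A830008E24Rik, Rasgrf1, Cyp3a57 and Tmem56, and lower was Myef2. Of these, 6 were also called from exonic reads. Reads of Cyp3a57, a cytochrome P450 gene with close paralogs, may be shared among them. Gm19519, a noncoding gene, averaged 11.9 in receptor-high and 2.00 in receptor-low tumors (log2 2.25 ± 0.34, adjusted p = 0.0013). It lies 86317 bases from Slc12a2 with 0 annotated genes between, and its exons overlap Ccdc192 on the other strand. Nrxn3, which encodes the synaptic adhesion protein neurexin 3, averaged 187 and 41.9 (log2 2.23 ± 0.37, adjusted p = 0.00447), while its exonic reads averaged 3.75 and 1.07 (adjusted p = 0.0600). Of the 20 higher genes whose introns could be tested, 18 had the same sign in introns and 5 were called there. Of 17 lower genes, 15 had the same sign and 1 was called. These genes were picked by exonic reads of the same libraries, and the share of equal signs over all genes is not given here.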

How the data were processed

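Total RNA of flash-frozen tumors was extracted with a Qiagen AllPrep kit, per the labels' protocols. The submitters' processing notes name bcl2fastq 2.20.0.422, STAR 2.6.1d, HTSeq 0.10.0 and the GRCm38 build. Which annotation, strand setting and normalization tool were used is not stated. The deposited values are a signal that the labels call normalized counts, given per gene (55421 genes) and for introns (33282 genes). The 5 HTSeq summary lines were left out of the tests and of the edgeR library sizes, but count in the totals behind the CPM. Of the deposited values, 100% were whole multiples of a per-library factor within 1e-06 reads, so whole reads were recovered for edgeR and DESeq2. The 59 libraries held between 307255 and 1059351 intronic reads.

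The values equal CPM over all reads counted divided by a scaling factor per library. They were taken as deposited and tested as log2(value + 1), which understates fold changes of low genes. Genes with a mean of at least 1 over the 59 libraries were tested, without Esr1 and Pgr. The main test was limma 3.58.1 in R 4.3.3 with an intensity trend, ester as a block and Benjamini-Hochberg adjustment over all genes tested, with calls at an adjusted p under 0.05. The vehicle tumors were fitted separately. Alternatives used edgeR 4.0.16 and DESeq2 1.42.0, other scaling, filters, classes and covariates, and each tumor left out. The edgeR test on recovered reads called 72 genes. The scripts were tested on simulated data. Positions came from GENCODE M21 (GRCm38).

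The classes, gene lists and tests were chosen with earlier results of these data known. Genes were named from those called with a mean of at least 10 in the 28 tumors, one direction and an unadjusted p under 0.05 in both esters (the 10 largest folds and 5 smallest p-values per direction), up to 4 members per list by p, and a set of chosen genes, of which 1 is not reported here. Named after their values were seen were Fxyd2, Aqp9, Trpc6, Gm16485, Fam25c, Aaas, the other neighbors of Pgr and the genes called from introns.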

Additional observations from a re-analysis of the deposited data

Results flagged for a closer look

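Libraries far from the others of their class were looked for with 9 measures in 6 classes of 7 tumors. Of these 54 combinations, 8 stood out, in 5 libraries. Score, Esr1 and Pgr were among the measures and had themselves set the classes, and measures of the same library can move together. No chance rate is therefore set beside the 8. Receptor-high methylparaben replicate 5 had an Esr1 level of 44.5 scaled CPM, next to 26.6, and 11.5% mitochondrial reads, next to 5.32%. Receptor-low methylparaben replicate 20 had an Esr1 level of 4.35, next to 12.4. Receptor-low propylparaben replicate 1 had a score of 2.88, next to 3.5. Receptor-high vehicle replicate 11 had a Pgr level of 110.0, next to 39.7. Receptor-low vehicle replicate 2 had 37.5% intronic reads, next to 26%, 30.6% of reads outside features, next to 18.7%, and a scaling factor of 0.835, next to 0.974.

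The receptor contrast differed between paraben and vehicle tumors for 304 genes with limma. Among named genes, the difference, paraben minus vehicle on the log2 scale, was -1.13 for Gata3 (adjusted p = 0.000293), 1.59 for Vegfa (0.0190) and -1.52 for Aqp9 (0.0336). It was -0.735 for Ncam1, a cell adhesion gene, with log2 fold changes of -0.44 in paraben and 0.30 in vehicle tumors (0.0411).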

How the results depend on the processing

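The 47 calls in paraben tumors became 14 with no filter on low values, 72 with edgeR (43 shared), 270 with DESeq2 (all 47 shared, with 562 genes given no adjusted p), 202 with array weights, and 30 with 6 tissue scores. They became 0 with 10 tumors a class and ester, 349 with the score as a continuous covariate over 40 tumors (43 shared), 0 with Esr1 alone and 30 with Pgr alone (22 shared). The mitosis score as a covariate, added after seeing the data, left 6. With single tumors left out the count ran from 19 (without propylparaben replicate 17) to 162 (without propylparaben replicate 14). It also moved by over 1.5 times without methylparaben replicates 2 (82), 4 (30), 15 (31) and 20 (26), and without propylparaben replicates 1 (30), 2 (22), 4 (24), 6 (24), 10 (25), 12 (96), 15 (95) and 19 (23). Pseudocounts of 0.5 and 10, a mean of at least 10, both other scalings, no treatment term and 5 tumors a class kept it within 1.5 times, as did, also added, leaving out the 3 libraries with low scaling factors and the reads outside features as a covariate. The cause was not tested.

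The vehicle count ran from 2516 to 3641 with single tumors left out. With the score as a continuous covariate it was 2381 over 19 vehicle tumors and 63 over the 13 of them, which was added after seeing the data. Of 1024 list medians under alternatives, 2 moved by more than the residual SD of the list score between tumors. Both were within propylparaben, to 0.186 for luminal transcription factors and 0.248 for estrogen response genes. That SD is wide for tissue lists, so the count does not measure stability. The muscle median turned negative within propylparaben, and the fibroblast median within methylparaben, without counting as moved. With 1 tumor left out, the matrix protease median turned sign in 12 of 28 fits and the Schwann and nerve median in 10. Differences of medians in place of means turned the sign for intronic reads (-0.760 percentage points), reads outside features (-0.486), mitochondrial reads (-0.0540) and the scaling factor (0.0114).

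Among 2763 values of 59 named genes, 30 turned sign, 335 lost a call and 79 gained one. Greb1 turned to -0.0186 with a pseudocount of 10, -0.00728 with no scaling factor, -0.0818 with edgeR, -0.0767 with DESeq2, -0.0334 with array weights, -0.0194 with 5 and -0.0459 with 10 tumors a class, -0.115 with Esr1 alone, -0.0106 with reads outside features and -0.0612 with the mitosis score. With single tumors left out, Greb1 ran from -0.0853 to 0.123. Nr3c1 turned to -0.0189 with tissue scores, -0.0428 with Pgr alone and -0.0490 with the mitosis score, and Fabp4 to -0.123, -0.426 and -0.698 under the same settings. Krt8 turned to -0.0158 with 5 tumors a class and Elf5 to 0.0394 with Pgr alone. With the mitosis score, Krt5 turned to -0.170, Ccnb1 to 0.0709 and Mki67 to 0.0190. No paired analysis was possible because the replicate numbers name tumors and do not tie receptor-high to receptor-low tumors. At these depths Esr1 rested on as few as 9 reads, which limits the precision of the classes.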
